A study of Mus musculus with 6 samples.

Results

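The genes described here copy the DNA and divide the cell. They are 33 mouse genes chosen by symbol and matched through their NCBI Gene identifiers among the 27179 features of a table of normalised counts. Of these, 11 serve DNA replication (the helicase subunits Mcm2 to Mcm7, the loading factor Cdc6, the clamp Pcna and the nucleotide enzymes Rrm1, Rrm2 and Tyms), 18 serve mitosis, and 4 are cyclins of G1 and of entry into S phase (Ccnd1, Ccnd2, Ccne1 and Ccne2). All 33 were in the table, and 31 had a mean of at least 10 normalised counts over the 6 libraries and were tested. Cdc6 and Ccne1 lay below that mean.

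The 6 libraries hold RNA of whole kidney glomeruli that were isolated with magnetic beads. The mice were males of 9 weeks, of strain C57BL/6 mixed, and had mild proteinuria per the labels. In the mice of the 3 KO libraries both copies of Parva, the gene of the adhesion protein alpha-parvin, carried loxP-flanked (floxed) alleles and a Cre recombinase was present under hNPHS2 sequences, the human podocin gene, whose promoter is active in podocytes (Parva-fl/fl*hNPHS2Cre). The mice of the 3 WT libraries carried the same floxed alleles without Cre (Parva-fl/fl), so both groups share the floxed gene and only KO mice carry the transgene. The question is how glomerular RNA differs after deletion in podocytes, which are only some of the cells in each library. The labels do not say whether each library is a separate mouse, so the p-values measure the spread between libraries, which may be technical in part. In such bulk libraries a lower or higher number of cells of a type and less or more RNA per cell cannot be told apart.

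Most cells of an adult glomerulus are resting, and podocytes in particular rarely complete a division. A cell that leaves rest first makes D-type cyclins. E2F factors then switch on the genes for origin licensing, nucleotides and the replication fork, and later the B-Myb and FoxM1 programme switches on the genes for the spindle, the kinetochore and the kinases of mitosis. In resting cells the DREAM complex holds mitotic genes down through a promoter element called CHR, the cell cycle genes homology region, and holds replication genes down through E2F sites. CCAAT boxes, bound by NF-Y, are common in the promoters of mitotic genes.

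Promoter sequences from RefSeq (GRCm38.p6, 250 bases before to 50 after a transcript start) were found for 26 of the 33 genes. A CHR letter match (TTTGAA or TTCGAA, both strands) lay in this window in 12 of the 15 mitotic genes with a sequence, in 2 of the 10 replication genes (Mcm2 and Mcm7), and in 21.7% of all 27025 genes of the promoter table. An E2F letter match (TTTCCCGC, TTTGCCGC, TTTCGCGC or TTTGGCGC, both strands) lay in 5 of the 10 replication genes (Cdc6, Mcm3, Mcm5, Mcm6 and Mcm7), in 1 mitotic gene (Cdk1) and in 2.60% of all. CCAAT on either strand lay in 14 mitotic and 8 replication genes and in 41.1% of all. Among the 10838 tested genes with a promoter sequence the shares were 16.2% for CHR, 4.50% for E2F and 42.5% for CCAAT. E2F matches on the opposite strands can overlap each other, as in Mcm6. These counts describe letters in a window, not bound sites. The mitotic genes without CHR letters here, Birc5, Ccnb1 and Cenpe, were highest in library KO-3. So was Mcm5, which holds E2F but no CHR letters, whereas Bub1b, which holds CHR letters, was highest in WT-3. Whether the letters go with the levels was not tested. The 200 bases before the start are shown for 4 mitotic genes that were each highest in KO-3, for Mcm6, which was lowest there, and for Rrm2, the replication gene with the largest difference, which holds neither CHR nor E2F letters here. Each runs 5′ to 3′ on the strand of its gene, and capitals mark CHR, E2F and CCAAT matches.
Cdk1, chr10:69352913-69353112, minus strand: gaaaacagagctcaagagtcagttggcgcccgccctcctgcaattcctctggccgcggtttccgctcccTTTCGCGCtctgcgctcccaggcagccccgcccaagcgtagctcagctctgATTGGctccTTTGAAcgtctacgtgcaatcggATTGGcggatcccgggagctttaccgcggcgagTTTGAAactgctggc
Ccnb2, chr9:70421555-70421754, minus strand: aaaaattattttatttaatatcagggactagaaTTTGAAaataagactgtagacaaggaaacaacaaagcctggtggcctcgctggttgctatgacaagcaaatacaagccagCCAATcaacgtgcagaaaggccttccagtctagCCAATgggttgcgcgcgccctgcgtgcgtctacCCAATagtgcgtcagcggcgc
Cdc20, chr4:118437344-118437543, minus strand: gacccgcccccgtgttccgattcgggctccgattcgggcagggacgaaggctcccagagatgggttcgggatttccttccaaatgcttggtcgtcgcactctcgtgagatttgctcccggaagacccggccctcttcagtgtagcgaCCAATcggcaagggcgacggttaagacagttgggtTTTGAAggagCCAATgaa
Kif11, chr19:37376182-37376381, plus strand: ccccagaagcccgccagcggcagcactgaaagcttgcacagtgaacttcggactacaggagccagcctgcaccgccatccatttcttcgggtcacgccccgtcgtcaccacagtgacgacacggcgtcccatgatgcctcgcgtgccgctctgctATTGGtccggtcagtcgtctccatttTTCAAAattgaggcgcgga
Mcm6, chr1:128359706-128359905, minus strand: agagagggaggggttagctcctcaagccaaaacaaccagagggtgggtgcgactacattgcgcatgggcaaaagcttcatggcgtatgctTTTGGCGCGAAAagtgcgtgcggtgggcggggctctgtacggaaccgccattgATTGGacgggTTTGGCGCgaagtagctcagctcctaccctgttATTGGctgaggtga
Rrm2, chr12:24708054-24708253, plus strand: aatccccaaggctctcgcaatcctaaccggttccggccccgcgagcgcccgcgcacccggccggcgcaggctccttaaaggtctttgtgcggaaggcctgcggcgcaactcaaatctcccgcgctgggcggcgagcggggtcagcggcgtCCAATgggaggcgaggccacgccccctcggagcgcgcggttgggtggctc

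The libraries held 11886828 to 20552984 whole reads each, recovered from the normalised counts. KO-2 and KO-3 stood apart: 10 genes whose top library exceeded the next by 30-fold or more held 17.4% to 32.4% of the reads in the other 4 libraries and 0.241% and 0.239% in these, and without such genes the depth was 11283413 to 14310785 reads. Values by library are given in the order of the replicate numbers, WT before KO. Parva stood at 6585, 7520 and 7890 normalised counts in WT and 2288, 2338 and 1942 in KO. Podocyte, endothelial and mesangial markers were all present, with 8 of 20, 17 of 20 and 11 of 15 lower in KO (limma adjusted p below 0.05). Over all genes tested, 8.58% were lower and 13.5% higher in KO at this threshold. Of 24 proximal tubule markers 22 were higher in KO, and their summed level was 301991, 137757 and 135442 in WT but 348213, 480290 and 526965 in KO. Of 14 tested parietal epithelial markers 4 were higher and 2 lower. Of 4 tested erythroid transcripts 2 were lower, and 1 that did not pass had a log2 fold change above 0 (1.38).

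None of the 31 tested cell cycle genes passed an adjusted p of 0.05 between KO and WT in limma, where 22.1% of the 13946 genes tested did (13.5% higher and 8.58% lower in KO). At an unadjusted p below 0.05 there were 4 (Ccnd2, Tyms, Birc5 and Rrm2), against 39.9% of all genes. edgeR on the recovered reads called 0 of the 31, against 20.4% of all genes, and DESeq2 called 2 where it called 27.3% of all genes, Birc5 (log2 fold change 1.82, adjusted p = 0.0463) and Ccnd2 (log2 fold change -0.54, adjusted p = 0.0321). KO and WT libraries did not overlap in 6 of the 31 genes, 5 of them higher in KO (Birc5, Bub1, Ccnb1, Cdca8 and Tyms) and 1 lower (Ccnd2), whereas they did not overlap in 45.1% of all genes (23.2% higher and 21.9% lower). Each of these 6 had p = 0.1 in an exact permutation test (two-sided), and 3 libraries per genotype can give no smaller p. Birc5, Bub1 and Ccnb1 had WT means of 7.64, 5.66 and 8.21 normalised counts. They thus reached the mean of 10 for testing only through the KO libraries, in which they were higher. The counts without overlap and the mitotic median include them. The median log2 fold change was 0.78 over the 18 mitotic genes, of which 17 were above 0, and 0.08 over the 10 tested replication genes, of which 6 were above 0, beside a median of -0.006 over all genes tested and 49.4% of all genes above 0. The difference between the 2 classes was not tested.

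**Figure D1:**
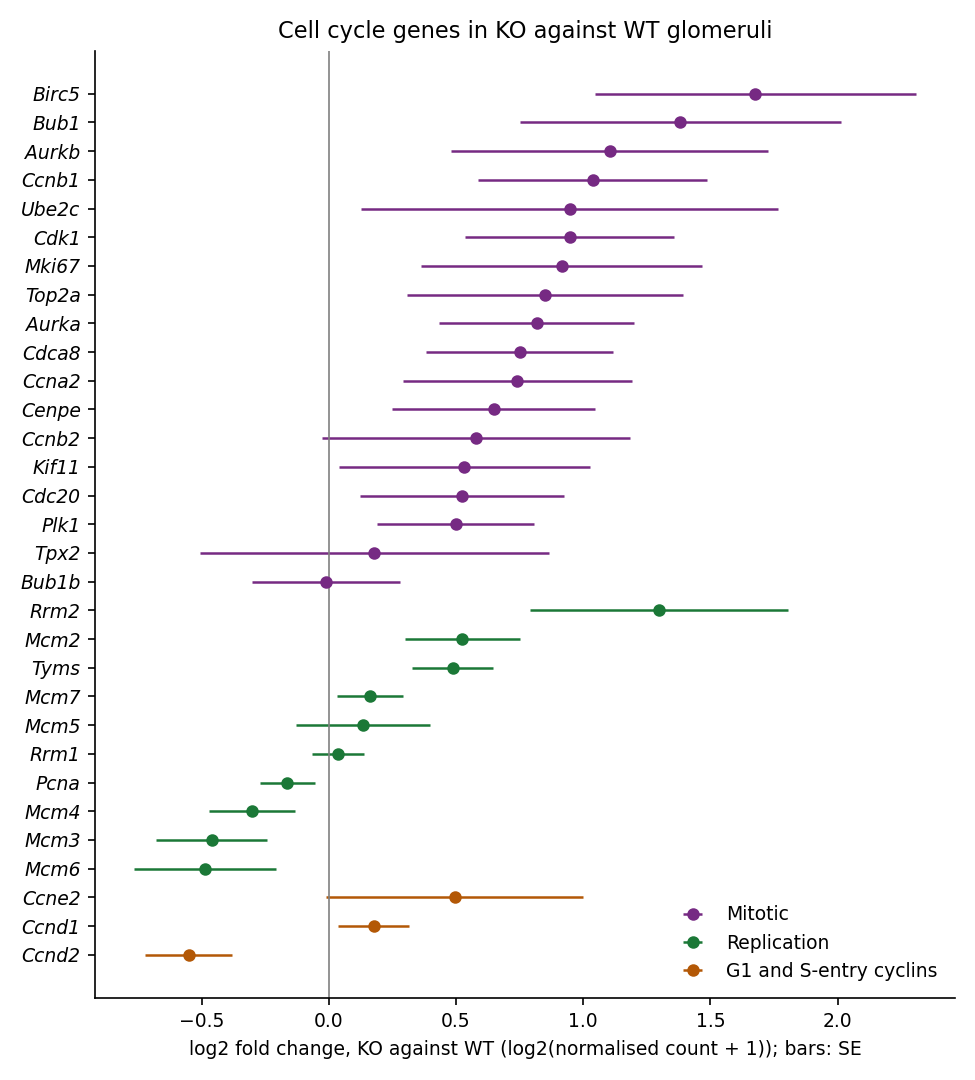
log2 fold changes (KO against WT, on log2(normalised count + 1), horizontal axis) with their standard errors for the 31 tested genes, coloured by class. The mitotic genes run from -0.01 (Bub1b) to 1.68 (Birc5), and the replication genes lie on both sides of 0, from -0.49 (Mcm6) to 1.30 (Rrm2).

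Mitotic transcripts were scarce, and their summed level overlapped between the genotypes. The 18 genes had between 2 and 140 whole reads per library, so single genes carry a wide counting error. Their summed normalised counts were 317, 305 and 588 in WT and 613, 381 and 1123 in KO, a mean of 404 ± 160 for WT and 706 ± 379 for KO (SD, n = 3). KO-3 stood apart at 1.83 times the next library. KO-1 was close to WT-3, and KO-2 lay between the lowest WT libraries and WT-3, so the groups overlapped. KO-3 was the highest library in 17 of the 18 genes, where it was the highest in 18.2% of all genes tested, and WT-3 was the highest WT library in 16 of the 18. KO-2 was within the WT range in 12 of them. For these counts of WT-3 and KO-2 the shares over all genes tested were not computed.

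**Figure D2:**
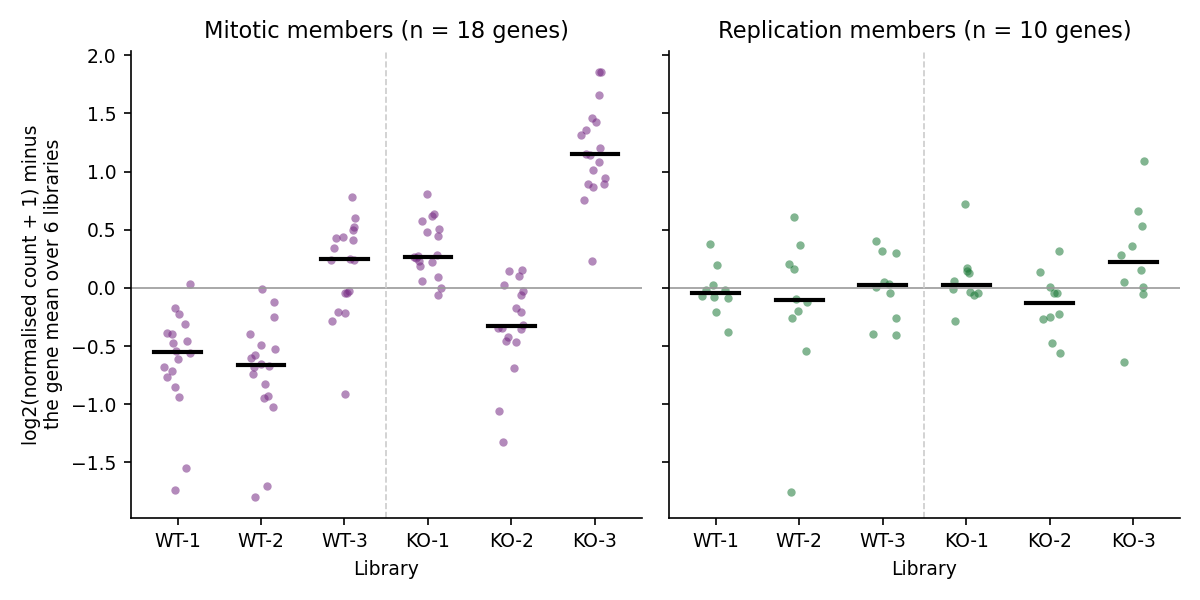
Each point is a gene in a library, as log2(normalised count + 1) minus the mean of that gene over the 6 libraries (vertical axis), for mitotic genes on the left and replication genes on the right, with a bar at the median of each library. The mitotic medians are -0.55, -0.66 and 0.25 in the WT libraries and 0.27, -0.33 and 1.15 in the KO libraries, and the replication medians stay between -0.13 and 0.22.

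Mki67, which encodes the proliferation marker Ki-67 that coats mitotic chromosomes (mm10 chromosome 7, 135689784 to 135716450), was measured at 33.7, 29.7 and 87.2 normalised counts in WT and 85.9, 44.4 and 159 in KO. WT-3 was thus as high as KO-1, and only KO-3 lay above every WT library. Its log2 fold change was 0.92 (SE 0.55, limma adjusted p = 0.252). Top2a, the topoisomerase that untangles sister DNA (chromosome 11, 98992947 to 99024199), gave the same order, with 27.2, 23.8 and 63.4 in WT and 56.7, 34.6 and 127 in KO (log2 fold change 0.85, with SE 0.54 and limma adjusted p = 0.277). Cdk1, the kinase that drives entry into mitosis, stood at 25, 24.7 and 30.5 in WT and at 51.4, 29.2 and 94.1 in KO. Here KO-1 and KO-3 were above all WT libraries and KO-2 was not (log2 fold change 0.95, with SE 0.41 and limma adjusted p = 0.131).

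Its partner cyclins shared the high value in KO-3. Ccna2 (cyclin A2) was at 22.8, 20.8 and 42 in WT and at 41.6, 28.2 and 82.8 in KO. Ccnb2 (cyclin B2) was at 16.3, 10.9 and 29.6 in WT and at 23, 13 and 61.2 in KO. For both, KO-1 and KO-2 lay inside the WT range. Ccnb1 (cyclin B1) was one of the genes without overlap, at 11.9, 6.93 and 5.76 in WT and 14.2, 13 and 27.2 in KO (log2 fold change 1.04, with SE 0.45 and limma adjusted p = 0.13). The WT library nearest to KO was WT-1 in this gene, unlike in the other 2 cyclins.

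The chromosomal passenger complex, which corrects the attachment of chromosomes to the spindle, includes Birc5, the mitotic gene with the largest fitted difference. Birc5 (survivin) had 7.6, 2.97 and 12.3 normalised counts in WT and 20.4, 13 and 48.8 in KO, with a mean of 7.64 ± 4.69 against 27.4 ± 18.9 (SD, n = 3; log2 fold change 1.68, with SE 0.63 and limma adjusted p = 0.0934). KO-2 exceeded WT-3 by less than 1 normalised count, so the absence of overlap rests on a very small margin. Cdca8 (borealin) was at 18.5, 14.8 and 19.8 in WT and 22.1, 24.9 and 49.9 in KO (log2 fold change 0.75, with SE 0.37 and limma adjusted p = 0.17). Aurkb, the kinase of the complex, ranged from 3.26 to 20.6 in WT and from 13 to 24.9 in KO (log2 fold change 1.10, with SE 0.62 and limma adjusted p = 0.224). WT-3 alone reached KO levels in Aurkb.

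Among the other mitotic kinases and spindle factors the genes did not behave alike. Bub1, a kinase of the spindle checkpoint, was at 7.6, 1.98 and 7.41 in WT and 10.6, 9.74 and 29.5 in KO (log2 fold change 1.38, with SE 0.63 and limma adjusted p = 0.146), which are 2 reads in WT-2. Its relative Bub1b (BubR1) showed no such difference, with 27.2, 31.7 and 37.9 in WT and 37.2, 22.7 and 37.4 in KO (log2 fold change -0.01, with SE 0.29 and limma adjusted p = 0.979). The difference between these relatives was not tested. Aurka, the kinase of the spindle poles, was at 10.9, 12.9 and 18.1 in WT and 26.6, 16.2 and 35.2 in KO. Plk1, which acts from mitotic entry to cytokinesis, was at 19.6, 22.8 and 26.3 in WT and 28.3, 26 and 46.5 in KO (log2 fold change 0.50, with SE 0.31 and limma adjusted p = 0.263). Tpx2, which activates Aurora A on the spindle, spread as widely within a genotype as between them, at 13, 23.8 and 45.3 in WT and 39, 9.74 and 53.3 in KO (log2 fold change 0.18, with SE 0.69 and limma adjusted p = 0.866).

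The motors and the activators of the anaphase-promoting complex repeated the library pattern. Cdc20, which targets the complex to its substrates, was at 33.7, 29.7 and 60.1 in WT and 54, 36.8 and 91.9 in KO. Ube2c, its ubiquitin-conjugating enzyme, was at 4.35, 10.9 and 21.4 in WT and 23, 6.5 and 55.6 in KO. In both genes WT-3 was above KO-2. Kif11, the motor that pushes spindle poles apart, was at 13, 11.9 and 26.3 in WT and 19.5, 15.2 and 44.2 in KO, and Cenpe, a kinetochore motor, ranged from 15.8 to 34.6 in WT and from 24.9 to 54.4 in KO. The limma adjusted p of these 4 genes was 0.26 for Cenpe, 0.365 for Cdc20, 0.424 for Ube2c and 0.455 for Kif11.

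Transcripts of leukocytes were highest in the same libraries as the mitotic genes. Of 25 leukocyte markers 19 were tested and none passed in limma, beside 22.1% of all genes tested. At an unadjusted p below 0.05 in limma there were 0, beside 39.9%. edgeR called 0 and DESeq2 1, beside 20.4% and 27.3%. KO-3 was the highest library in 18 of the 19. Their summed normalised counts were 2020, 2141 and 3091 in WT and 3181, 2280 and 9392 in KO, which is 2.95 times the next library in KO-3. Cd74, the chaperone of MHC class II of antigen-presenting cells, stood at 3089 in KO-3 and at 348 to 608 elsewhere, and the complement gene C1qa of macrophages at 196 against 10.9 to 29.7. The T cell marker Cd3e, which was below the mean for testing, was not counted in KO-1 and reached 5.67 in KO-3. Adgre1, a defining marker of macrophages, was at 80.5 in KO-3 and at 8.66 to 23 elsewhere, and Ptprc, which marks leukocytes, was at 171 in KO-3 and at 75.2 to 142 elsewhere. The part of these cells in the mitotic values was not tested.

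**Figure D3:**
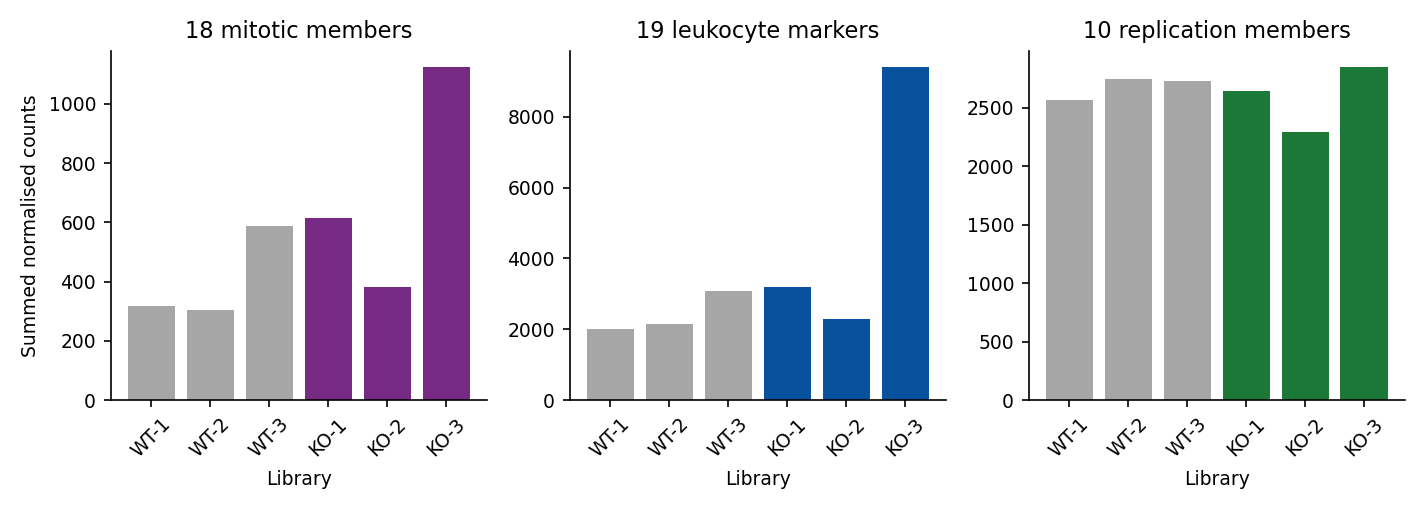
Summed normalised counts (vertical axes, starting at 0, with a scale for each panel) in each library of 18 mitotic genes, 19 leukocyte markers and 10 replication genes, with WT in grey and KO in colour. KO-3 has the highest bar in all 3 panels, at 1123, 9392 and 2844, and in the first 2 panels WT-3 and KO-1 come next, while the replication bars differ little.

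The summed level of the replication genes, in which Pcna is the largest term, ranged from 2292 to 2844 between libraries, while single genes such as Rrm2 and Mcm6 varied more. The sums were 2563, 2746 and 2723 in WT and 2640, 2292 and 2844 in KO, a mean of 2678 ± 100 against 2592 ± 279 (SD, n = 3). Per kilobase of exon (GENCODE M21), Pcna stood at 399 normalised counts in WT, against 4.99 for Mki67 and 5.42 for Cdk1. Pcna, the sliding clamp of DNA polymerases that also serves repair in resting cells (chromosome 2, 132249286 to 132253180), had 892, 1044 and 938 normalised counts in WT and 900, 761 and 908 in KO (log2 fold change -0.16, with SE 0.11 and limma adjusted p = 0.293). The groups overlapped, with KO-2 the lowest library.

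The 6 subunits of the MCM2-7 ring, the replicative helicase that acts as 1 complex, had fitted differences of both signs, and none passed. Mcm2 was at 115, 91.1 and 129 in WT and 150, 129 and 211 in KO (log2 fold change 0.52, with SE 0.23 and limma adjusted p = 0.127). Mcm3 was at 210, 288 and 295 in WT and 183, 151 and 248 in KO (log2 fold change -0.46, with SE 0.22 and limma adjusted p = 0.16). In Mcm6 KO-3 was the lowest of all libraries, at 205, 241 and 132 in WT and 173, 135 and 101 in KO (log2 fold change -0.49, with SE 0.28 and limma adjusted p = 0.229). This is the reverse of what KO-3 showed in the mitotic genes and in Mcm2.

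Mcm4 differed by -0.30 on the log2 scale (SE 0.17, limma adjusted p = 0.223), from 237, 268 and 299 in WT and 235, 173 and 248 in KO. Mcm5 and Mcm7 were at 0.13 and 0.16 (limma adjusted p = 0.736 and 0.39), and both were highest in KO-3, at 167 and 333. Cdc6, which loads the ring onto origins, had 4 to 7.6 normalised counts in WT and 4.33 to 12.5 in KO. With a lower minimum mean of 1 its log2 fold change was 0.28 (limma adjusted p = 0.733).

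Among the replication genes, the smallest p belonged to 2 of the 3 enzymes that supply nucleotides for DNA. Tyms, thymidylate synthase, had 118, 104 and 93.8 normalised counts in WT and 129, 155 and 160 in KO, with no overlap (log2 fold change 0.49, with SE 0.16 and limma adjusted p = 0.0659). Rrm2, the S-phase subunit of ribonucleotide reductase, had 56.5, 13.9 and 37 in WT and 81.5, 54.1 and 105 in KO. WT-1 lay just above KO-2, and WT-2 was lowest (log2 fold change 1.30, with SE 0.51 and limma adjusted p = 0.102). Rrm1, the large subunit, which is also made outside S phase, hardly varied, at 382, 351 and 377 in WT and 415, 364 and 362 in KO (log2 fold change 0.04, with SE 0.10 and limma adjusted p = 0.818). Without WT-1, both Tyms and Rrm2 passed in limma (adjusted p = 0.046 and 0.0275), in a fit that called 30.8% of all genes. Without WT-2, Rrm2 was at 0.75 (limma adjusted p = 0.217). With the mean of the proximal tubule markers as a covariate, Rrm2 was at 0.13 and Tyms at 0.081. That covariate (mean log2 level) was 12.6, 11.4 and 11.4 in WT and 13, 13.5 and 13.4 in KO, without overlap. Its part and that of genotype therefore cannot be told apart in these 6 libraries, here or in the other genes.

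The G1 cyclins Ccnd1 and Ccnd2 had differences of opposite sign. Ccnd1 (cyclin D1) was the most abundant of the 33 genes per kilobase, at 771 in WT, and had 3546, 3701 and 3640 normalised counts in WT and 3472, 3994 and 4977 in KO (log2 fold change 0.18, with SE 0.14 and limma adjusted p = 0.377). The WT libraries were nearly equal, and KO-1 lay below and KO-2 and KO-3 above them. Ccnd2 (cyclin D2) had 790, 1056 and 958 in WT and 525, 619 and 780 in KO, so that the highest KO library was just below the lowest WT library, WT-1 (log2 fold change -0.55, with SE 0.17 and limma adjusted p = 0.0556). It missed the threshold narrowly and passed it with upper quartile scaling (adjusted p = 0.0452), in DESeq2 and without WT-1 (adjusted p = 0.0225). The summed levels of podocyte, endothelial and mesangial markers were lower in each KO library than in any WT library, for podocyte markers in KO-1 only narrowly. The part of these cells in the level of Ccnd2 was not tested. The E-type cyclins, which start S phase, had low counts. Ccne1 was at 10.9, 0.99 and 3.29 in WT and 10.6, 8.66 and 23.8 in KO, and Ccne2 at 9.78, 16.8 and 11.5 in WT and 11.5, 13 and 37.4 in KO. Both were highest in KO-3. The limma adjusted p was 0.499 for Ccne2 and, with a minimum mean of 1, 0.151 for Ccne1.

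Of 48 further replication genes 47 were tested, and 3 rose (among them Tk1 and Rfc2) and 1 fell (Pola2), with a median log2 fold change of -0.001, beside 13.5% of all genes higher and 8.58% lower. Tk1, thymidine kinase, rose from 44.5, 23.8 and 30.5 to 64.7, 72.5 and 121 (log2 fold change 1.35, with SE 0.33 and limma adjusted p = 0.0332). Rfc2, of the clamp loader, rose by a log2 fold change of 0.40 and Pola2, of the primase complex, had -0.64 (limma adjusted p = 0.0474 and 0.0339). In Tk1 and Rfc2 the WT library nearest to KO was WT-1, which also had the highest proximal tubule markers among WT. With the mean of those markers as a covariate the log2 fold changes of Tk1 and Rfc2 were 0.43 and 0.11. Pola2 was at -0.10 in that fit, and no gene in the table was called. The call of Rfc2 was also lost with upper quartile scaling (limma adjusted p = 0.0673), a minimum mean of 1 (0.0532) and no filter (0.0576).

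Of 79 further mitosis genes 58 were tested, and 5 rose and none fell, beside 13.5% and 8.58% of all genes, with a median of 0.33 and KO-3 the highest library in 35. Cks2, a small subunit of the CDK complex, rose from 151, 94 and 83.1 to 199, 280 and 270 (log2 fold change 1.22, with SE 0.25 and limma adjusted p = 0.0286). Spc24 and Spc25, partners in the NDC80 kinetochore complex, rose by 0.97 and 0.72 (limma adjusted p = 0.0312 and 0.0457), Nusap1, a spindle protein, by 1.07 (limma adjusted p = 0.0347) and Zwint, of the outer kinetochore, by 0.46 (limma adjusted p = 0.0484). Spc24 (29.3, 25.7 and 23 in WT, 57.6, 44.4 and 54.4 in KO) and Nusap1 (20.6, 20.8 and 23 in WT, 43.4, 36.8 and 61.2 in KO) did not have the high WT-3 value seen in Mki67. With the proximal tubule covariate their log2 fold changes were 0.82 and 1.15, against 0.19 for Cks2, -0.02 for Spc25 and 0.0004 for Zwint. edgeR called 3 of the 58 genes as higher, where it called 20.4% of all genes, and Spc25 and Zwint were not among them (adjusted p = 0.0542 and 0.0539). Both were also lost with upper quartile scaling and no filter, Zwint with TMM scaling and a minimum mean of 1, and Nusap1 with no filter (limma adjusted p = 0.0502 to 0.0562).

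Of 36 inhibitors and RB-E2F regulators 34 were tested, and 2 rose and none fell, beside the same shares of all genes, with a median of 0.03. Wee1, the kinase that restrains CDK1, rose from 58.7, 52.5 and 78.2 to 104, 160 and 113 (log2 fold change 0.98, with SE 0.24 and limma adjusted p = 0.0326), and E2f2, an activating E2F, from 22.8, 14.8 and 22.2 to 39, 35.7 and 47.6 (log2 fold change 1.01, with SE 0.28 and limma adjusted p = 0.0425). E2f2 was lost with no filter (limma adjusted p = 0.0688). With the proximal tubule covariate Wee1 was at a log2 fold change of 0.92 and E2f2 at 0.69, neither of them called. Cdkn1c (p57), the CDK inhibitor of mature podocytes, was at 18995, 21174 and 16646 in WT and 28764, 19967 and 18806 in KO (log2 fold change 0.23, limma adjusted p = 0.461). Cdkn1a (p21) was at 0.15 and Cdkn1b (p27) at -0.24 on the same scale (limma adjusted p = 0.639 and 0.137). Of the transcription factors that drive the 2 waves, E2f1 was at -0.32, Foxm1 at -0.16 and Mybl2 at 0.42 (limma adjusted p = 0.162, 0.698 and 0.461). Foxm1 and Mybl2 did not peak in KO-3: Foxm1 was highest in WT-2, at 56.4, and the scarce Mybl2 in KO-1, at 17.7. KO-3 was the highest library in 7 of the 34 genes of this list and in 18.2% of all genes tested.

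Of the libraries left out in turn, KO-3 moved the mitotic median most. Without it the median log2 fold change of the 18 mitotic genes was 0.36, with 15 above 0, against 0.78 with all libraries, and that of the replication genes was -0.02. Without any other single library the mitotic median lay between 0.61 (without WT-2) and 1.10 (without KO-2). The leukocyte marker median was 0.61 with all libraries and 0.13 without KO-3. Single genes depended on other libraries as well: Mki67 was at 0.47 without KO-3, 1.39 without WT-3 and 1.37 without KO-2, Top2a at 0.35, 1.28 and 1.27. Ccnb2 was at -0.01 without KO-3. The proximal tubule markers as a covariate moved single mitotic genes in both directions, Ccnb1 to 0.057, Bub1 to 0.43 and Cdca8 to 0.43, but Aurkb to 3.27, Ube2c to 3.00 and Tpx2 to 2.06, with a mitotic median of 1.06. These are not effects of genotype freed of tubule content, because the covariate did not overlap between the genotypes. Without KO-3 limma called 0.0215% of all genes and none of the 31. The further replication, mitosis and regulator genes that passed with all libraries all lost their calls when WT-2, WT-3, KO-2 or KO-3 was left out, and limma then called 1, 0, 4 and 3 genes in the whole table. Without KO-1 limma still called 2062 genes, but Pola2, Rfc2, Spc24, Spc25, Nusap1, Zwint and E2f2 lost their calls (limma adjusted p = 0.0576 to 0.089). Tk1, Cks2 and Wee1 kept theirs in that fit.

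**Figure D4:**
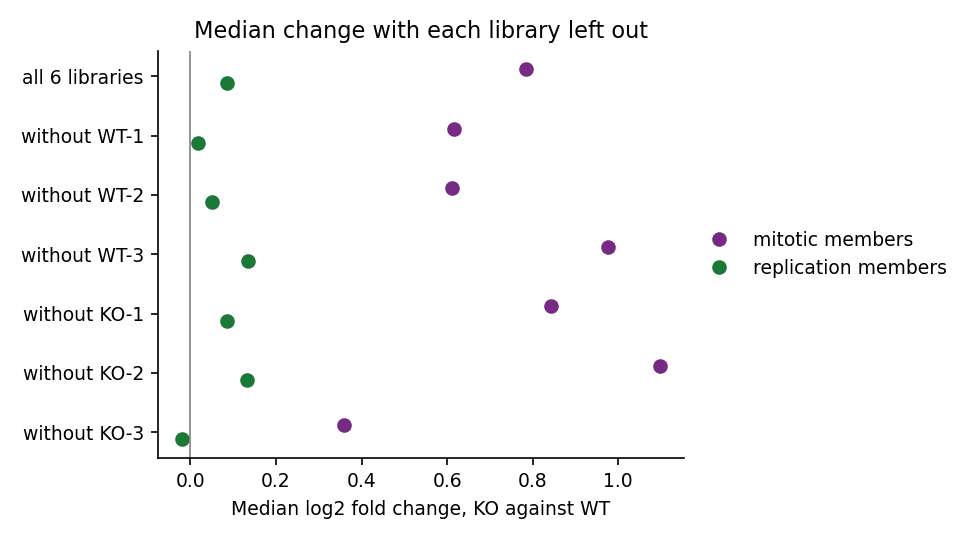
Median log2 fold change (horizontal axis) of the 18 mitotic and the 10 replication genes with all 6 libraries and with each library left out in turn. The mitotic median moves between 0.36 without KO-3 and 1.10 without KO-2, and the replication median between -0.02 and 0.14.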

How the data were processed

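The values the authors deposited are normalised counts, a signal in which each library's reads are divided by its size factor. The submitters' processing notes name DESeq2 2.11.40.6, featureCounts 1.6.4, HISAT2 2.1, cutadapt 1.16.5 and bcl2fastq 2.19, with build mm10. Neither annotation release nor strand setting is given in these sources, so reads of overlapping genes or near-identical pseudogenes cannot be told apart.

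All values were whole multiples of a step per library (100% at a tolerance of 0.01), which gave whole reads. Of 27179 features, 25275 were named from RefSeq, and the 1904 unnamed ones stayed in the tests. Groups came from the labels. limma 3.58.1 (R 4.3.3) with a variance trend was fitted to log2(normalised count + 1) of 13946 genes whose mean reached 10, with genotype as its only term, two-sided, with Benjamini-Hochberg adjustment over all of them. Fold changes on this scale understate those of low genes. edgeR 4.0.16, DESeq2 1.42.0, other scalings, filters and pseudocounts, a replicate block, a proximal tubule covariate and leaving out each library were alternatives. Scripts were tested on simulated counts, drawn independently for each gene and library. Library shifts shared by many genes were not simulated, so this could not show how the calls behave under them.

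The genes and lists were chosen with earlier results of these data known. All 33 genes are named. Of other lists, up to 4 genes with the smallest adjusted p past the threshold are named, with Cdkn1a, Cdkn1b, Cdkn1c, E2f1, Foxm1, Mybl2 and Parva. Zwint, the marker genes Cd74, C1qa, Cd3e, Adgre1 and Ptprc and the printed promoters were chosen after values were seen. A further replication gene that passed is not reported here.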

Additional observations from a re-analysis of the deposited data

How the results depend on the processing

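Counts of 2 to 140 reads limit the mitotic genes, and 3 libraries per genotype limit every test. The count of 3085 genes called in limma fell to 0 with the proximal tubule covariate, to 1 without the variance trend and to 0 with a replicate block, although 417, 5305 and 4284 genes had an unadjusted p below 0.05 there. It ranged from 0 (without WT-3) to 4294 (without WT-1) when 1 library was left out. Of the 31 cell cycle genes, 0 were called in the reported fit, 1 with upper quartile scaling (Ccnd2), 2 in DESeq2 (Ccnd2 and Birc5) and 0 to 3 when 1 library was left out, the 3 being Rrm2, Tyms and Ccnd2 without WT-1. The other alternatives called 0 of them. The medians of the mitotic and replication genes moved by less than 0.63 and 0.15 under every alternative, and ranged from 0.36 to 1.10 and from -0.02 to 0.14 with 1 library left out. These margins are pooled SDs, between libraries of a genotype, of the mean log2 level of each class, and not errors of the medians. The mitotic margin is wide: a fall from 0.78 to 0.36 without KO-3 lies within it. With a minimum mean of 50 the mitotic median rested on 3 genes.

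Of the 31 genes, 22 kept their direction under all 17 or 18 alternatives that gave them a value. None of the other 9 was called in any alternative. The replicate block, limma without the variance trend and the other filters leave the fold change of a gene as it was, so they could not turn a direction. With the proximal tubule covariate, Mcm3 was at 0.056, Mcm4 at 0.10, Pcna at 0.061 and Bub1b at 0.56. Rrm1 was at -0.025 with upper quartile scaling, and Bub1b at 0.0076 in edgeR and 0.0090 in DESeq2. With 1 library left out, Bub1b ranged from -0.13 to 0.22, Mcm5 from -0.10 to 0.32, Rrm1 from -0.028 to 0.070, Tpx2 from -0.28 to 0.88, Ccne2 from -0.018 to 0.79 and Ccnb2 from -0.0100 to 1.07. The causes were not tested. Whether the replicate number pairs libraries was not settled. Over the genes tested, deviations from the group means correlated at -0.23, -0.19 and -0.01 between same-numbered libraries, and at -0.20 to 0.34 between the others. With 3 libraries per genotype such correlations cannot decide it. With the replicate block limma called no cell cycle gene, but 10 of the 31 had an unadjusted p below 0.05, against 4 without it. Over all genes tested, 4284 had such a p with the block and 5563 without it.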
